A study of Mus musculus with 3 samples.

Results

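Tnf and the feedback regulators of NF-kB were read in 3 single-cell RNA-Seq libraries taken from the bone marrow, the blood and the injured tendon of mice. The set holds 10 genes (Tnf, Nfkbia, Nfkbiz, Nfkbie, Tnfaip3, Tnip1, Nfkb1, Nfkb2, Rel and Zfp36) of the 27998 genes in the files, and each was found by its symbol. The set was put together because Nfkbia and Tnf carried most of a difference between tendon and blood cells over a list of TNF response genes. The tendon to blood contrast is therefore a description here, and nothing is supported with it.

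All the mice were 10-week-old male C57BL/6J animals that received a burn on the back and a full cut of the Achilles tendon, an injury that is followed by heterotopic ossification, the growth of bone in soft tissue. Cells were taken on day 3 and were not sorted. Bone marrow cells were flushed from the femurs, blood cells were the mononucleated fraction of a Ficoll gradient, both with lysis of red cells, and the tendon site alone was digested with enzymes at a warm temperature. There was 1 library per tissue, how many mice went into each is not stated, and no uninjured tissue is among the libraries. Site, preparation and library therefore cannot be told apart, no test between tissues is possible, and every interval covers counting error only.

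NF-kB is a family of transcription factor dimers that inhibitors of the IkB family hold in the cytoplasm until a signal such as TNF leads to the breakdown of the inhibitor. The freed dimers switch on cytokine genes and also the genes of their own brakes, among them the IkB proteins and the A20 ubiquitin-editing enzyme, so the signal is cut off after a burst. In neutrophils and monocytes this loop is set off by cytokines and by products of microbes or damaged tissue.

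The genes lie on 8 chromosomes of mm10 (GRCm38). Tnf, the inflammatory cytokine, is at chr17:35199381-35202007 on the minus strand. Nfkbia, which encodes IkB alpha, the inhibitor that is resynthesised first, is at chr12:55489410-55492647 on the minus strand. The RefSeq table of windows that run from 250 bases before to 50 bases after each gene's start on GRCm38.p6 held 8 of the 10 genes, and lacked Nfkbiz and Nfkb1. The kappaB consensus, the 10-base site that NF-kB dimers bind, was searched by its usual degenerate form on both strands, and overlapping matches were merged. Of the 8 genes, 6 had a match in at least 1 window, and 9.55% of the 27025 genes in the table did. Tnf and Zfp36 had none, which says only that these letters are not in these windows. The 250 bases before the start are shown for 3 genes with a match and for Tnf, 5′ to 3′ on the gene's strand, with the match in capitals. They are shown because these genes encode brakes of the pathway and the cytokine that sets it off.
Nfkbia, chr12:55492648-55492897, minus strand: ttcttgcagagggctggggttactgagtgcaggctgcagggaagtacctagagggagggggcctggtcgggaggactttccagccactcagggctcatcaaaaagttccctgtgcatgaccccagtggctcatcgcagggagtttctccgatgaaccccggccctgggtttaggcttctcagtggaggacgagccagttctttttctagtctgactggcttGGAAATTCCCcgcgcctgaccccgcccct
Nfkbie, chr17:45555450-45555699, plus strand: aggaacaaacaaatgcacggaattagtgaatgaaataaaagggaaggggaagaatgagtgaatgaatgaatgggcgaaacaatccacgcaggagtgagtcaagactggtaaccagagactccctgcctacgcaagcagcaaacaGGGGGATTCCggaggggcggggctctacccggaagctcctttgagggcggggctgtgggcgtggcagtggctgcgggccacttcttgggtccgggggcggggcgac
Tnip1, chr11:54962941-54963190, minus strand: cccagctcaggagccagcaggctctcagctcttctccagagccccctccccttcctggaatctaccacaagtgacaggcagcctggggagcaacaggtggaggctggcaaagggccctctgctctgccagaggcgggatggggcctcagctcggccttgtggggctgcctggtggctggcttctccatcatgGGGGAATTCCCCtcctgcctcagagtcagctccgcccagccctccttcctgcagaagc
Tnf, chr17:35202008-35202257, minus strand: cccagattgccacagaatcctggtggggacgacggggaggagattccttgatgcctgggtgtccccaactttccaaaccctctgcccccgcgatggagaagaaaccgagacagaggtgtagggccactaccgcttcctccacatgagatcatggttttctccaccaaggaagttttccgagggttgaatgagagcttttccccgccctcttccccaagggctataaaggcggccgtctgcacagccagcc

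The first base of the match as printed lies 29 bases before the start of Nfkbia and 106 bases before that of Nfkbie. Zfp36 encodes tristetraprolin, which binds AU-rich stretches in the 3′ UTR of mRNAs and speeds their decay, and the Tnf mRNA is its best known target. The AU-rich nonamer TTATTTATT was searched on the sense strand, overlaps counted, in the longest annotated 3′ UTR of each of 21037 genes, and 7.65% of them held it. Of the 10 genes, 5 held it: Tnf had 5 copies, and Nfkbia, Tnfaip3, Rel and Zfp36 had 1 each. The first run of overlapping copies was cut at a limit of 30 bases. In Tnf the stretch kept holds 4 whole copies in 27 bases on the minus strand of chr17:35199681-35199707, printed in capitals as a whole. Whether the other copy overlaps its end is not shown.
Tnf, 3′ UTR: TTATTTATTATTTATTTATTATTTATT

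After cells with under 200 genes or over 20% mitochondrial UMIs (unique molecular identifiers, the counted mRNA molecules) and likely doublets were removed, 1813 marrow, 2146 blood and 4780 tendon cells were left, with medians of 22893, 8362 and 12178 UMIs. Each library was clustered by itself with the 10 genes and the other pathway genes left out, and a cluster was called after the markers among its leading genes. Few deposited barcodes were shared, 2 between marrow and blood, 1 between marrow and tendon and 6 between blood and tendon, and leaving those cells out changed no call of the 10 genes. Tendon mature neutrophil-like cells were shallow, with a median of 3811 UMIs against 8062 in blood and 14615 in marrow. All 8 mature neutrophil markers were found in them and 8 of 8 NK cell markers were at 0. No tendon cluster was named NK-like, so the absence of NK cell markers says little here. Their summed level of the macrophage markers was 215 CPM (counts scaled to 1000000 UMIs of the class), against 7873 CPM in the tendon classical monocyte-like cells.

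Levels were compared over the 20 named classes that had at least 50 cells. Tendon mature neutrophil-like cells stood first for Tnf, Nfkbia, Nfkbiz, Tnfaip3, Tnip1 and Zfp36, although for Tnip1 and Zfp36 the interval overlapped that of the next class. Dendritic-like cells of the tendon led for Rel and Nfkbie, nonclassical monocyte-like cells of the blood for Nfkb1, and B-like cells of the blood for Nfkb2, and for Nfkbie and Nfkb2 the interval overlapped that of the next class. For Nfkbia all 9 tendon classes lay above all 11 marrow and blood classes, from 340 CPM in keratinocyte-like cells upward against at most 297 CPM in blood nonclassical monocyte-like cells, and the intervals of that pair overlapped. None of the other 9 genes separated the tendon in this way.

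**Figure D1:**
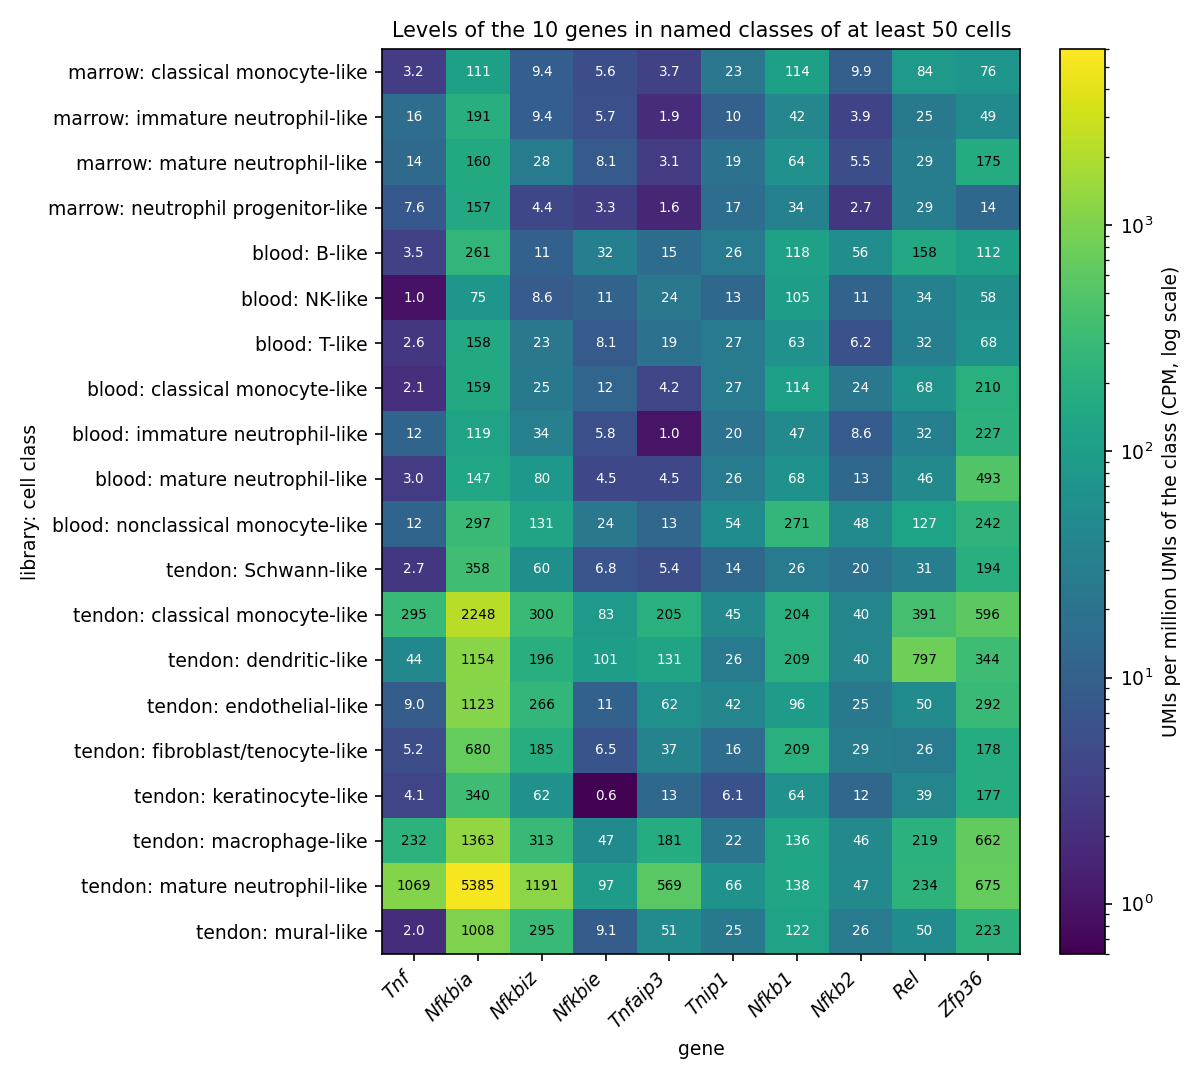
Level of each gene (columns) in each named class of at least 50 cells (rows, by library), in CPM, with the colour on a log scale. The Tnf column runs from 0.95 CPM in blood NK-like cells to 1069 CPM in tendon mature neutrophil-like cells, and the Nfkbia column from 75.1 to 5385 CPM.

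Among the named classes Tnf was high in the myeloid cells of the tendon. Its level was 1069 CPM (95% Poisson interval 1025 to 1115) in mature neutrophil-like cells, 295 CPM (284 to 305) in classical monocyte-like cells, 232 CPM (224 to 240) in macrophage-like cells and 44.2 CPM (34.3 to 56.0) in dendritic-like cells. These 4 levels of pooled classes were apart beyond their intervals, but the clusters inside them did not keep that order. The macrophage-like clusters read 329 CPM (315 to 343), 190 and 120 CPM, and the classical monocyte-like clusters 296 CPM (283 to 310) and 293 CPM. The other 16 classes lay between 0.95 and 16 CPM, and neighbours in that order overlapped throughout. Keratinocyte-like cells, which lie in the same suspension, read 4.08 CPM at a median depth of 39643 UMIs. Free RNA in the droplets was not measured, and it can weigh more in shallower classes. Levels of a few CPM in the tendon, and perhaps more in shallow classes, cannot be told from it.

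In mature neutrophil-like cells Tnf did not climb steadily from marrow to tendon. The tendon level of 1069 CPM stood over 14.4 CPM (11.6 to 17.5) in the marrow class and 2.97 CPM (1.28 to 5.85) in the blood class. Blood was the lowest of the 3, at 8 UMIs in 329 cells of the mononucleated fraction. Its level lay within the range of the blood lymphocytes, whose B-like, T-like and NK-like classes read 3.53, 2.56 and 0.95 CPM. Immature neutrophil-like cells of the blood read 11.5 CPM (5.95 to 20.1), which overlapped the marrow class. The marrow level was not particular to the mature stage: immature neutrophil-like cells of the marrow read 16 CPM (14.1 to 18.0) and neutrophil progenitor-like cells 7.59 CPM (5.75 to 9.83). The log2 ratio of blood to marrow was -2.27 (interval -3.53 to -1.24), and over the alternative settings it lay between -2.51 and -1.31.

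Across the 9 tendon classes Nfkbia ran from 340 CPM in keratinocyte-like cells, near the highest blood class at 297 CPM, upward. Mature neutrophil-like cells held 5385 CPM (5285 to 5487) in tendon, against 147 CPM (133 to 162) in those of blood and 160 CPM (150 to 169) in those of marrow, so marrow and blood overlapped and the tendon was far above both. Tendon classical monocyte-like cells followed with 2248 CPM, macrophage-like cells with 1363 CPM, and dendritic-like and endothelial-like cells with 1154 and 1123 CPM, the last 2 not apart. Fibroblast/tenocyte-like cells read 680 CPM and mural-like cells, the contractile cells around vessels, 1008 CPM. In these stromal and vascular classes, each pooled, Tnf was at or under 8.99 CPM. Inside the fibroblast/tenocyte-like class a cluster of 45 cells read 32.4 CPM (22.0 to 46.0), from 31 UMIs in 4.44% of its cells.

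Nfkbiz encodes IkB zeta, a nuclear member of the family that acts with NF-kB on a subset of its targets. Of the IkB genes Nfkbia, Nfkbiz and Nfkbie, it was the one that differed at each site of the mature neutrophil-like class. It read 1191 CPM (1144 to 1239) in the tendon, 80.1 CPM (69.8 to 91.5) in the blood and 27.7 CPM (23.8 to 31.9) in the marrow. The 3 intervals did not overlap. Nfkbie, which encodes IkB epsilon, a slower inhibitor, read 8.14 CPM in marrow, 4.45 CPM in blood and 97.4 CPM in tendon, with marrow and blood overlapping. Keratinocyte-like cells, at 0.64 CPM from 5 UMIs, were the lowest class for Nfkbie.

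The ubiquitin-editing enzyme A20, encoded by Tnfaip3, and its partner ABIN-1, encoded by Tnip1, differed in pattern. Tnfaip3 read 3.11 CPM in marrow, 4.45 CPM in blood and 569 CPM (537 to 603) in tendon mature neutrophil-like cells, and 205, 181 and 131 CPM in the monocyte-like, macrophage-like and dendritic-like cells of the tendon. Tnip1 spanned a narrow range, from 6.13 CPM in keratinocyte-like cells to 66.4 CPM (55.7 to 78.6) in tendon mature neutrophil-like cells, and 17 of the 19 neighbour pairs in its order overlapped.

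The subunit genes were spread over many classes. Nfkb1, which encodes p105 and p50, was highest at 271 CPM (239 to 306) in blood nonclassical monocyte-like cells, and tendon mature neutrophil-like cells read 138 CPM (122 to 155), close to tendon macrophage-like cells at 136 CPM. Nfkb2, which encodes p100 and p52, read 55.6 CPM in blood B-like cells and 47.2 CPM in tendon mature neutrophil-like cells, with overlapping intervals. Rel, which encodes c-Rel, was highest at 797 CPM (753 to 842) in tendon dendritic-like cells, a class in which Tnf read 44.2 CPM.

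Zfp36 was the one gene of the 10 whose tendon and blood neutrophil levels lay within 2-fold. It read 675 CPM (640 to 711) in mature neutrophil-like cells of the tendon, 493 CPM (467 to 520) in those of the blood and 175 CPM (165 to 185) in those of the marrow, and 13.6 CPM in the neutrophil progenitor-like cells of the marrow. Immature neutrophil-like cells of the marrow read 49.4 CPM, and the levels from progenitor to immature to mature marrow cells to blood were all apart beyond their intervals.

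**Figure D2:**
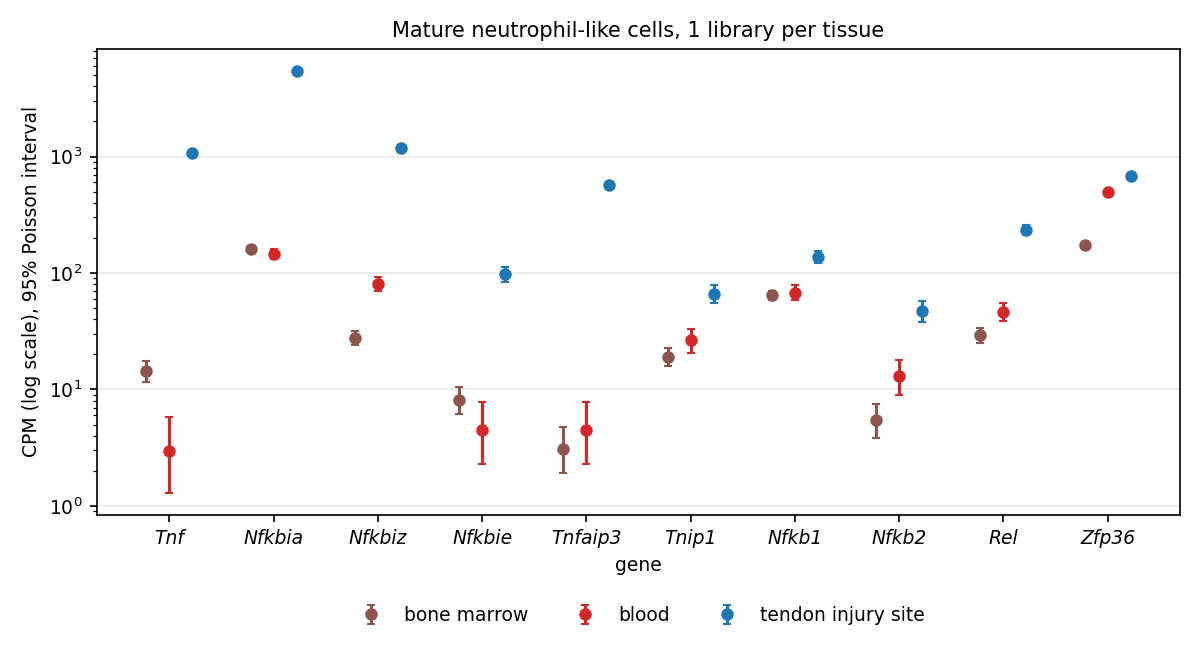
Level of each gene in mature neutrophil-like cells of the 3 libraries (461 marrow, 329 blood and 466 tendon cells), in CPM on a log axis, with bars for the 95% Poisson interval of the count. The tendon point lies above the other 2 for all 10 genes, from 675 over 493 CPM for Zfp36 to 1069 over 2.97 CPM for Tnf.

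The contrast of tendon to blood in mature neutrophil-like cells was expressed as a log2 ratio of CPM. A gene was called when the ratio was at least 2-fold and its exact binomial interval excluded 0, among genes with 20 or more UMIs in both groups together. Of the 10 genes, 9 were higher and 0 lower, where 14.9% of the 6242 genes read were called higher and 14.8% lower; as the set was chosen on this contrast, nothing is read from that count. The ratio was 8.49 (7.51 to 9.71) for Tnf, 7.0 (6.19 to 7.96) for Tnfaip3, 5.20 (5.05 to 5.34) for Nfkbia, 4.45 for Nfkbie and 3.89 for Nfkbiz. Subunits differed less, at 2.34 for Rel, 1.86 for Nfkb2 and 1.02 (0.75 to 1.30) for Nfkb1, and Tnip1 at 1.34. Zfp36, at 0.45 (0.34 to 0.56), was the gene not called. The Nfkb1 call was lost in 4 alternative settings, with ratios down to 0.70, and the Tnip1 call in 1, at 0.63. Among all called genes 50.2% were on the higher side, and 38.1% once genes with over 1% of the UMIs were left out of the total.

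The rest of the pathway is given by the lists chosen for it, for tendon to blood in mature neutrophil-like cells. Of all genes read in that contrast, 14.9% were called higher and 14.8% lower. Of the other inhibitors and IkB proteins 6 of 13 were higher and 0 lower, led by Nfkbid (195 against 24.1 CPM), which encodes another nuclear IkB protein, and by Zc3h12a (140 against 19.3 CPM), which encodes the RNase Regnase-1. Of the receptors and adaptors 3 of 14 were higher, led by Traf1 (207 against 0.742 CPM), and 1 was lower, Irak4 (22.1 against 71.2 CPM). Of the kinases 1 of 8 was higher, Map3k8 (71.4 against 34.5 CPM). Of the 28 target genes found, 21 had enough UMIs to be read, and a gene scarce in blood was read only through its tendon counts. The target list had 20 of these 21 higher, with a median ratio of 4.99 against -0.12 over all genes read. It was led by the chemokine Ccl3 at 1091 against 0.371 CPM. The blood levels of Ccl3 and Traf1 were under 1.11 CPM, the level of 3 UMIs in that class. From marrow to blood 9 of the 28 target genes were read, 4 were higher and 0 lower, with a median ratio of 0.53 against 0.12.

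A list of 15 immediate early and heat shock genes, which can respond to digestion and warming, moved along. In this contrast 9 of 14 were higher and 1 lower, with a median ratio of 1.69. Egr1 read 391 against 18.5 CPM, while Fos read 152 in tendon and 324 CPM in blood. Across all tendon classes the summed level of that list was 5156 to 8692 CPM, against 1165 to 3295 CPM in blood and 341 to 876 CPM in marrow. Its part in the values of the 10 genes was not tested. Mature neutrophil-like cells, the highest tendon class for the 10 genes at 9472 CPM, had 5879 CPM of the list. Schwann-like cells, the lowest for the 10 genes at 717 CPM, were the highest for the list at 8692 CPM. That low end held for pooled UMIs only. With each cell cut at random to 1000 UMIs, keratinocyte-like cells were the lowest tendon class for the 10 genes. Their mean was 0.735 of 1000 UMIs, against 1.21 in Schwann-like cells. These are the ends of the range, and no relation over the 9 tendon classes was measured. An unnamed tendon cluster described below stood above the mature neutrophil-like class for both.

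The step from marrow to blood was not itself used to choose the set, but it shares its blood values with the tendon to blood contrast that was. A low blood level raises the ratio of tendon to blood and lowers that of blood to marrow. The step is therefore not independent of the choice, and nothing is read from the count of genes called. In mature neutrophil-like cells 3 of the 10 genes were higher in blood and 1 lower, where 11% of 7178 genes were called higher and 8.36% lower. Those higher were Nfkbiz at 1.53 (1.24 to 1.82), Zfp36 at 1.49 (1.38 to 1.61) and Nfkb2 at 1.25 (0.54 to 1.95), and Tnf was the one lower. Nfkbia, at -0.12 (-0.29 to 0.05), and Nfkb1, at 0.08 (-0.18 to 0.33), had narrow intervals around 0, while Tnfaip3 at 0.52 (-0.64 to 1.61) rested on 12 and 21 UMIs. At a clustering resolution of 0.5 in place of 1 the calls of Nfkb2 and Zfp36 were lost, and with cells of equal weight that of Nfkb2. The immediate early list had 9 of 12 genes higher in blood and a median ratio of 2.55, and its part was not tested. Over all genes 56.9% of calls were on the higher side, and 38.5% once genes with over 1% of the UMIs were left out of the total.

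Within the marrow library, where preparation is shared, 2 of the 10 genes were higher in mature than in immature neutrophil-like cells and 0 lower, beside 11.1% and 32.2% of 9333 genes. These were Zfp36 at 1.83 (1.70 to 1.96) and Nfkbiz at 1.55 (1.24 to 1.87), the same genes that led the step from marrow to blood. Nfkbia went from 191 CPM in immature to 160 CPM in mature cells, a ratio of -0.26 (-0.36 to -0.16), and Tnf differed by -0.16 (-0.51 to 0.19). The median over all genes was -0.39, and centred on it both turned to the higher side, at 0.13 for Nfkbia and 0.23 for Tnf. With that centring Tnfaip3, Tnip1 and Nfkb1 were called higher as well, while the higher side of all calls moved from 25.7% to 43.1%. The immediate early list had 5 of 10 genes higher and 1 lower.

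The classical monocyte-like class gave the same contrast of sites in another lineage. Its tendon side pooled a cluster of 575 cells and a cluster of 395 cells. The smaller one was led by H2-Aa, Cd74 and H2-Ab1, which were also among the leading genes of the tendon dendritic-like cluster. The cells compared between the sites may therefore not be alike. Of the 10 genes 7 were higher in tendon than in blood and 0 lower, where 11.2% of 10285 genes were called higher and 16.9% lower. The set was chosen on tendon over blood, so nothing is read from this count either. The ratio was 7.15 (6.34 to 8.10) for Tnf, from 2.08 to 295 CPM, 5.62 (5.04 to 6.27) for Tnfaip3 and 3.82 (3.72 to 3.91) for Nfkbia, from 159 to 2248 CPM. Nfkbiz at 3.59, Nfkbie at 2.77, Rel at 2.53 and Zfp36 at 1.51 were also called. Tnip1, Nfkb1 and Nfkb2 had ratios of 0.76 to 0.84 that were not. They became calls when ratios were centred on the median of all genes, which was -0.25. Tnip1 read -0.10 in thinned cells, and the lowest ratio over the settings was 0.02 for Nfkb2 and 0.82 for Nfkb1. That centring moved the higher side of all calls from 39.9% to 54.9%. Both contrasts are between the same 2 libraries. In the tendon to blood ratios the interval for Nfkbia in neutrophils (5.05 to 5.34) lay above that in monocytes, and that for Zfp36 (0.34 to 0.56) below the monocyte interval of 1.42 to 1.60. Of the immediate early list 12 of 15 genes were higher in tendon monocyte-like cells and 0 lower, and its part was not tested.

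From marrow to blood, classical monocyte-like cells had 4 of the 10 genes higher and 0 lower, beside 5.28% and 12.0% of 10447 genes. They were Zfp36 at 1.47 (1.34 to 1.60), Nfkbiz at 1.41, Nfkb2 at 1.26 and Nfkbie at 1.12. The first 3 are those called higher in neutrophils over the same pair of libraries. The blood values are shared with the tendon to blood contrast here too, and nothing is read from the count. The immediate early list had 10 of 15 higher and 1 lower. Rel went the other way from neutrophils, at -0.31 (-0.49 to -0.14) against 0.67 (0.33 to 1.0), and neither value was 2-fold.

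**Figure D3:**
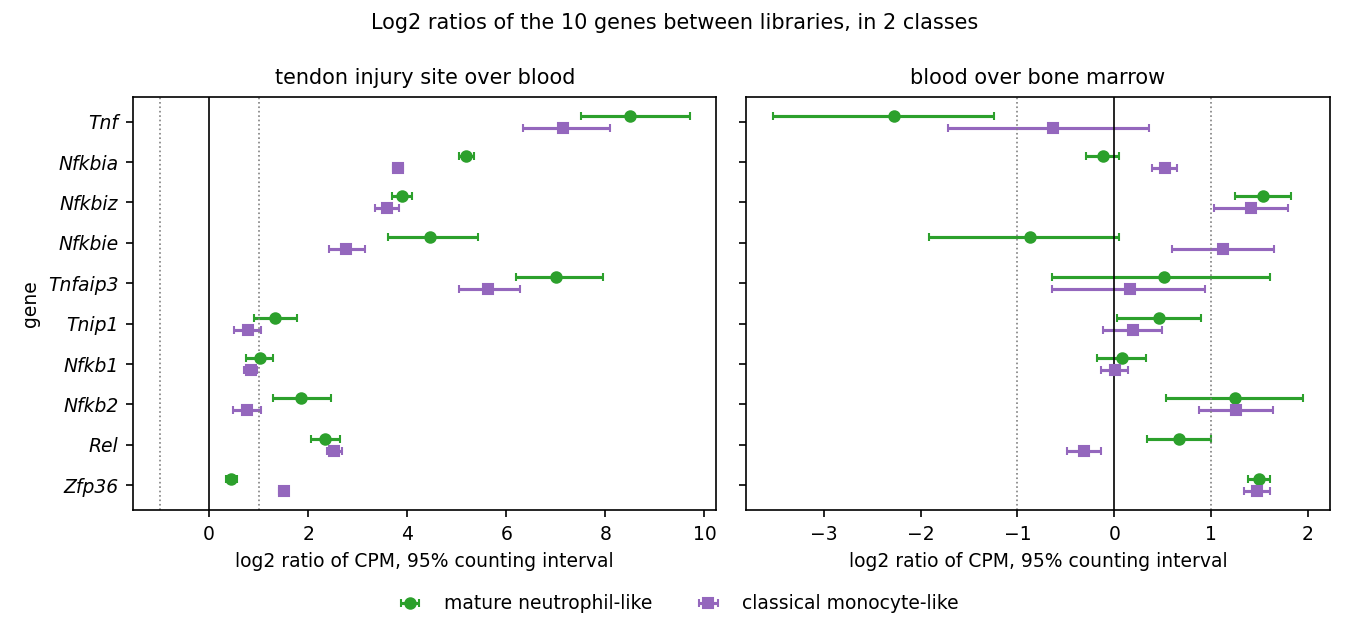
Log2 ratio of CPM of tendon to blood (left) and of blood to marrow (right) for each gene, in mature neutrophil-like cells (circles) and classical monocyte-like cells (squares), with 95% counting intervals and dotted lines at 2-fold. On the left all points lie above 0, from 0.45 to 8.49, and on the right Tnf in neutrophils lies at -2.27 while Nfkbiz, Nfkb2 and Zfp36 lie above 1 in both classes.

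Within the blood library, nonclassical monocyte-like cells, the patrolling monocytes, had 6 of the 10 genes higher than classical monocyte-like cells and 0 lower, where 10.3% of 9083 genes were higher and 8.38% lower. Nfkbiz read 131 against 25.0 CPM, a ratio of 2.39 (2.04 to 2.75), and Nfkb1 271 against 114 CPM, a ratio of 1.25 (1.04 to 1.46). Tnf at 2.47 (1.15 to 3.78) and Tnfaip3 at 1.60 (0.46 to 2.65) rested on 11 and 12 UMIs in the nonclassical cells. Nfkb2 at 1.03 and Tnip1 at 1.01 stood just past the fold, and lost the call in 2 and 5 alternative settings. The immediate early list did not move one way here, with 3 of 15 genes higher and 3 lower. Median depth differed, at 7526 UMIs in nonclassical and 18678 in classical cells.

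Among tendon cells, macrophage-like and classical monocyte-like cells were close for these genes. None of the 10 was called higher and 1, Tnip1, was lower (22.3 against 45.5 CPM, ratio -1.02), where 18.0% of 11193 genes were higher and 4.75% lower. Rel at -0.84 (-0.91 to -0.77), Nfkbie at -0.82 and Nfkbia at -0.72 (-0.75 to -0.69) were lower in macrophage-like cells by under 2-fold, and Tnf at -0.35 (-0.42 to -0.28). The order for Tnf held for the pooled classes and not for each of their clusters. The median over all genes was 0.33, and centred on it 4 genes were called lower (Tnip1, Rel, Nfkbie and Nfkbia). Centring also moved the higher side of all calls from 79.1% to 56.5%. The Tnip1 call was lost in 6 other settings.

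Tendon mature neutrophil-like cells exceeded tendon classical monocyte-like cells at 4 of the 10 genes and were lower at 0, beside 10.5% and 46.3% of 9753 genes. The set was chosen on high tendon levels of Tnf and Nfkbia, so nothing is read from this count. Nfkbiz stood at 1.99 (1.91 to 2.06), Tnf at 1.86 (1.78 to 1.94), Tnfaip3 at 1.47 and Nfkbia at 1.26 (1.23 to 1.29). Rel at -0.74 and Nfkb1 at -0.57 were below 0 with intervals that excluded it, but the median of all genes was -1.05, and centred on it both turned to the higher side, at 0.31 and 0.48. That centring moved the higher side of all calls from 18.5% to 54.2% and added Tnip1, Nfkb2, Nfkbie and Zfp36 to the genes called higher. With 1.5 times the resolution, Nfkbia at 0.56 and Tnfaip3 at 0.98 lost the call; the class then also held 84 cells led by Prtn3 and Ms4a3, genes of neutrophil precursors.

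A cluster of 97 tendon cells stood apart. It was led by Ccl3, Il1a and Hcar2, and its median was 2115 UMIs. It was left unnamed because of that depth and because its 10 first genes held no marker. Depth alone did not decide this. The mature neutrophil-like class, at 0.313 of the library median against 0.174 in the cluster, was also under the depth limit and kept its name. Of the cluster's 10 first genes 6, Ccl3 and Tnf among them, were genes left out of clustering but not of naming. Still, 7 of 8 mature neutrophil markers were among its 100 leading genes. Tnf was also among its leading genes, so its values are a description chosen after they were seen. Tnf read 4024 CPM (3756 to 4306) in it, against 1069 CPM in the mature neutrophil-like class, Nfkbia 10021 against 5385 CPM, and Tnfaip3 1532 against 569 CPM. Of the 10 genes 5 were called higher (Tnf, Tnfaip3, Nfkbie, Tnip1 and Zfp36) and 0 lower, beside 15.5% and 4.89% of 4871 genes. The median of all genes was 0.29, and centred on it Tnip1 and Zfp36 were not called and the higher side of all calls moved from 76.1% to 53.6%. Nfkb1 (158 against 138 CPM) and Rel (269 against 234 CPM) were not apart. The immediate early list summed to 12225 against 5879 CPM and the mature neutrophil markers to 49552 against 202962 CPM, and their part was not tested. The median mitochondrial share was 0.47% in the cluster and 0.70% in the class, while Gm42418, a transcript that overlaps ribosomal RNA sequence, read 114891 against 79733 CPM, and the part of either was not tested.

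**Figure D4:**
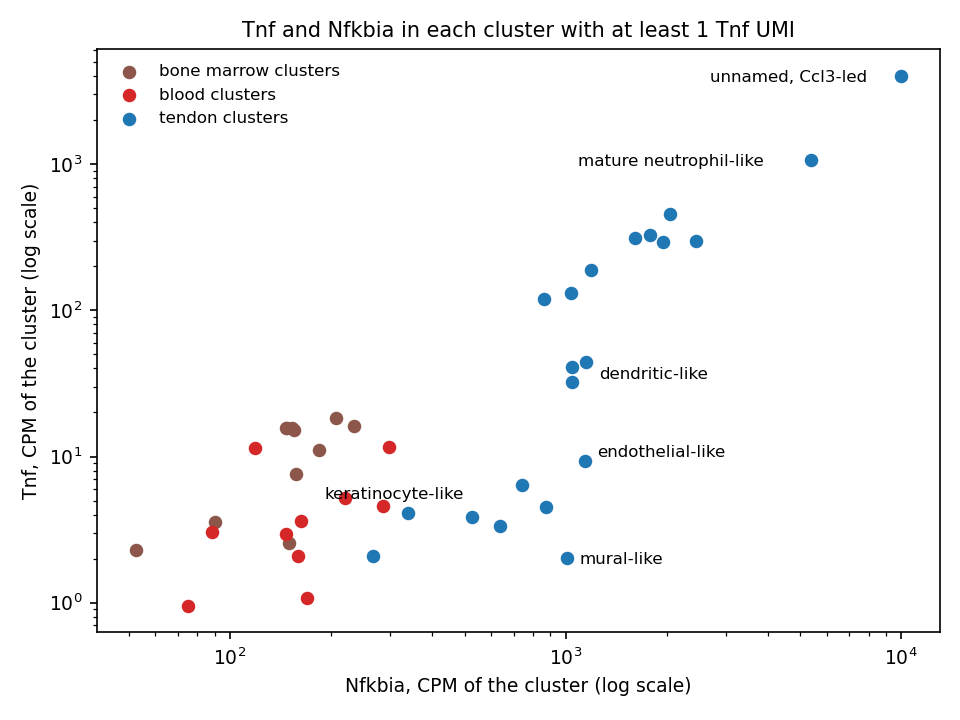
Tnf against Nfkbia, each as CPM of a cluster on a log axis, for the clusters of the 3 libraries with at least 1 Tnf UMI. The Ccl3-led cluster lies at 10021 and 4024 CPM and the mature neutrophil-like cluster at 5385 and 1069 CPM, while the mural-like cluster has Nfkbia at 1008 and Tnf at 2.02 CPM.

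To see the genes cell by cell at equal depth, each cell was thinned to 1000 UMIs and shallower cells were left out. In the tendon 51.4% of 461 mature neutrophil-like cells (exact binomial interval 46.7% to 56.1%) then held a Tnf UMI, against 73.4% before thinning. The thinned share was 19.7% of monocyte-like, 19.2% of macrophage-like and 0.552% of keratinocyte-like cells. Keratinocyte-like cells were far deeper, at a median of 39643 UMIs against 3811 in mature neutrophil-like cells. Their share therefore does not measure what free RNA gives in shallower classes. In blood it was 0.307% of 326 mature neutrophil-like and 0.271% of 738 T-like cells, and in marrow 2.41% of 456 mature neutrophil-like and 0.556% of 360 monocyte-like cells. The share that free RNA gives was not measured in any of the libraries. For Nfkbia the shares were 88.3%, 16.6% and 14.9% in tendon, blood and marrow neutrophils, and 24.9% in keratinocyte-like cells of the tendon. The Ccl3-led cluster held a Tnf UMI in 79.5% and an Nfkbia UMI in 94.9% of 78 cells.

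The thinned cells also showed how many of the 10 genes met in a cell. Tendon mature neutrophil-like cells had a median of 3 of the 10 genes, 27.1% had 5 or more, and 4.77% had none. Blood and marrow mature neutrophil-like cells had medians of 1 and 0, and 39.0% and 57.9% had none. The 10 genes took a mean of 10.3 of 1000 UMIs in tendon, 0.997 in blood and 0.566 in marrow neutrophils, and 19.8 in the Ccl3-led cluster.

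Where the transcripts of the tendon lay depended on level, RNA content and number of cells. Mature neutrophil-like cells held 2.40% of all UMIs of the kept tendon cells but 18.3% (17.6% to 19.0%) of the Tnf UMIs, 11.7% of Tnfaip3, 11.3% of Nfkbiz and 10.5% of Nfkbia. Macrophage-like cells held 28.9% and monocyte-like cells 25.7% of the Tnf UMIs, and the Ccl3-led cluster, with 0.246% of all UMIs, held 7.06%. An unnamed cluster of 201 cells led by Arg1, Ppbp and Spp1, picked out after its values were seen, held 10.8% of the Tnf UMIs with 3.31% of all UMIs. Its Tnf level of 458 CPM (433 to 484) lay above those of the monocyte-like and macrophage-like classes, and its Nfkbia level was 2051 CPM. Fibroblast/tenocyte-like cells held 41.2% of the Nfkb1 UMIs, 22.6% of Nfkbiz and 17.2% of Nfkbia, and 1.15% of Tnf.

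**Figure D5:**
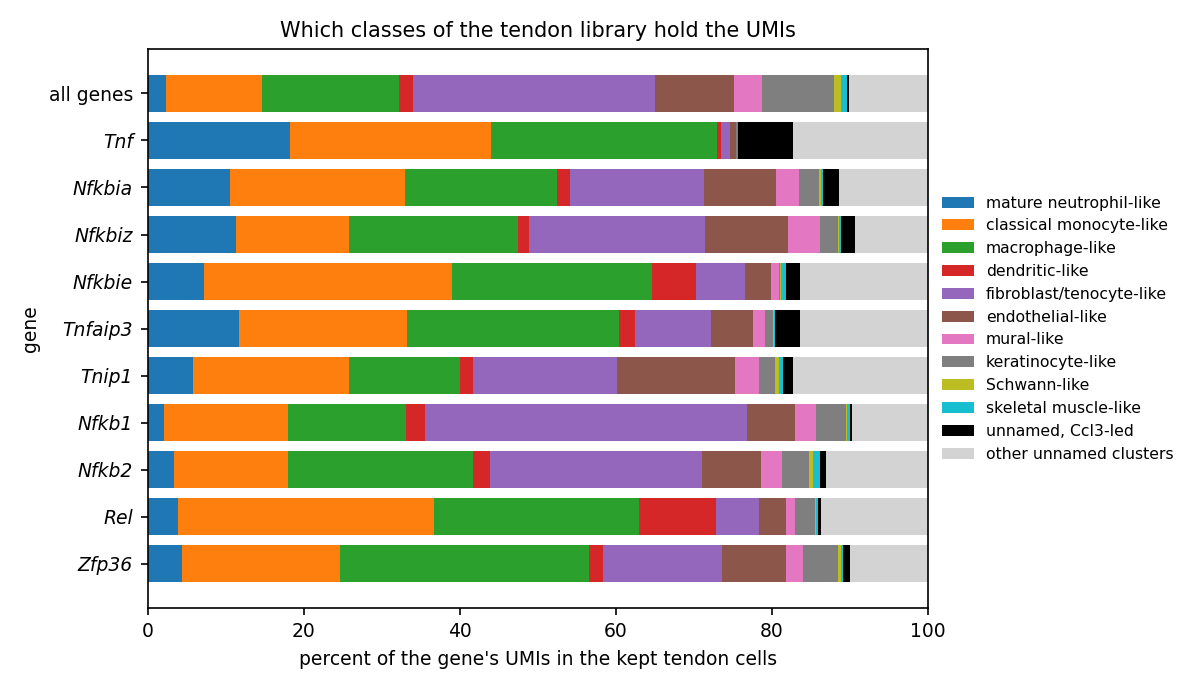
Percent of the UMIs of each gene, and of all genes (top bar), held by each class of the kept tendon cells. Mature neutrophil-like cells take 2.40% of the top bar and 18.3% of the Tnf bar, and fibroblast/tenocyte-like cells take 31.1% of the top bar and 1.15% of the Tnf bar.

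Over the 20 named classes the 45 pairs of the 10 genes had Pearson correlations of log2(CPM + 1) between 0.35 (Tnf and Nfkb1) and 0.89 (Nfkbia and Nfkbiz). Nfkbie and Rel stood at 0.88. Of 9934 genes with at least 20 CPM in some class, those most like Tnf were Il1a at 0.86, 9130230L23Rik at 0.85, and Mdm2, Rybp and Slc1a2 at 0.84 to 0.85, and those most like Nfkbia were Sde2 at 0.93, then Maff, Rabgef1, Ccnl1 and Csrnp1 at 0.90 to 0.91. The points share 3 libraries, and these values describe the classes with no test.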

How the data were processed

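A matrix of genes by cells was read for each of the 3 tissues (1 library each, 10x 3′ v3 chemistry). The authors deposited raw UMI counts. The file headers name Cell Ranger 5.0.1, the submitters' processing notes name mm10, and no annotation is named. From there, cells with at least 200 genes and at most 20% mitochondrial UMIs were kept, and the top doublet scores of Scrublet (scanpy 1.11.5) were removed at 0.8% of cells per 1000 cells (27, 38 and 198 cells), since its automatic threshold marked 1, 32 and 6. Each library was clustered with Seurat 5.3.0 (R 4.3.3; 2000 variable features without the 10 genes and the pathway lists, 30 components, resolution 1). A cluster took the name of the class with most markers among its 100 leading genes, with at least 3. A tie, or a class of another lineage within 1 marker of the best, left it unnamed. It also stayed unnamed when its median depth was under 0.333 of that of its library and its 10 first genes held no marker. This depth rule was settled after the clusters were seen. The members and gene lists were chosen with earlier results of these data known.

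UMIs were summed per class and library and scaled to 1000000 (CPM) with exact Poisson 95% intervals, and ratios with the exact binomial interval of the UMI split (Python 3.11.15, scipy 1.17.1). A level or group at 0 UMIs was set to a floor of 3 counts in ratios. Depth was 49580625, 22542581 and 90621052 deposited UMIs in marrow, blood and tendon. Named beside the 10 genes are, per list and comparison, some of the up to 4 largest and 2 smallest ratios, and the 5 genes most like Tnf and Nfkbia. The ratio code was tested on simulated data. Alternatives were other filters, doublets kept, other resolutions, integration, other scalings, cells of equal weight, thinned cells and, chosen after seeing the data, low-UMI clusters named by markers alone and cells with shared barcodes left out. Gene positions and 3′ UTRs were taken from GENCODE M21 (GRCm38) by Ensembl identifier.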

Additional observations from a re-analysis of the deposited data

Results flagged for a closer look

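Rel went opposite ways from marrow to blood in 2 classes of the same pair of libraries. Its log2 ratio was 0.67 in mature neutrophil-like cells (29.2 to 46.4 CPM) and -0.31 in classical monocyte-like cells (83.9 to 67.6 CPM), each with a counting interval that excluded 0. There was 1 library per tissue, and the difference was not tested. Across the alternative settings the ratio lay between 0.44 and 1.43 in neutrophils and between -0.32 and 0.28 in monocytes, and the monocyte value changed sign in thinned cells.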

How the results depend on the processing

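With 1 library per tissue no alternative measures the spread between animals. In mature neutrophil-like cells of blood and marrow, Tnf, Tnfaip3 and Nfkbie rested on counts of 8 to 97 UMIs. Of the counts of called genes over all comparisons and settings, 95 of 109 stayed within 1.5 times the value given and 14 moved. Of the log2 ratios of single genes, 1011 of 1071 stayed as they were, called or not called. A call was lost in 32 and gained in 28, and 0 called ratios changed sign. The 1071 include ratios that had no call to lose. The count of genes apart from blood to marrow in mature neutrophil-like cells fell from 4 to 2 at a resolution of 0.5. The count between tendon macrophage-like and monocyte-like cells, 1, became 0 with doublets kept, at a resolution of 0.5, with integrated libraries, without genes over 1% of UMIs and with cells of equal weight, and 4 when centred on the median of all genes.

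Levels in tendon mature neutrophil-like cells followed the borders of the class. Tnf, at 1069 CPM, read 1347 CPM with the stricter filter, 1344 CPM at a resolution of 0.5 or with low-UMI clusters named by markers alone, and 763 CPM at 1.5 times the resolution. Nfkbia, at 5385 CPM, read 5839, 5816 and 3493 CPM in those settings and 5500 CPM with integrated libraries. The share of tendon Tnf UMIs in the class, 18.3%, became 25.2%, 25.4% and 28.1% in those settings, 17.3% with doublets kept and 14.4% with integrated libraries. A resolution of 0.5 and naming by markers alone each put the Ccl3-led cluster into the class. A resolution of 1.5 did so too, and also added 84 cells with 2131131 UMIs, led by Prtn3, Ms4a3 and Hist1h1b. The share of cells with a Tnf UMI was 37.3% when thinned to 500 UMIs.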
